A study of Mus musculus with 24 samples.

Results

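Gene expression in mouse hind paw skin was compared between day 6 and day 1 of treatment with an agonist antibody to the lymphotoxin beta receptor (LTβR). The comparison used the 6 paw libraries that the labels place at these points, 3 per day, of the 24 libraries in the series, and it was made across all genes. All mice were male, of strain C57 and 8 to 12 weeks old, and the antibody was injected into the hind paw at 10 µg per injection. The day-1 tissue was punch-biopsied 1 day after 1 injection, and the day-6 tissue followed 2 injections. The study also sampled paw skin 1 day after control IgG at the same dose, lumbar dorsal root ganglia (DRG), which hold sensory neurons that innervate the paw, under the same 3 conditions, and lumbar spinal cord on both agonist days, with 3 libraries per group. Day 6 differed from day 1 in both time and number of injections, and none of the libraries used here is an IgG control of day 6, so effects of time and of the second injection cannot be told apart. The titles place the biopsy 6 days from injection 1, whereas the design text places it 6 days past both injections, so "day 6" is used as the name of the group, of uncertain interval. Nothing in the labels says that the numbered samples came from different animals, and p-values measure only how far these samples spread, which may be technical.

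LTβR, a TNF-family receptor, is found on stromal, endothelial and myeloid cells. Its ligands, made mainly by lymphocytes, stabilise the kinase NIK (gene Map3k14), which leads to processing of p100 (Nfkb2) and to nuclear RelB-p52 dimers, the non-canonical arm of NF-κB signalling. The receptor is known for its part in lymphoid tissue formation, in the expression of endothelial adhesion molecules and in the recruitment of blood-derived cells to tissue.

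Reads counted in genes numbered 25724749 to 36713608 in the day-1 libraries, 32658124 to 41037458 in the day-6 libraries and 24228438 to 26164087 in the paw IgG libraries. Defining genes of skin were abundant, with the basal keratin gene Krt5 at 1975 to 2694 CPM (counts scaled to a common library total) and the collagen gene Col3a1 at 1780 to 3941 CPM in the agonist libraries. The T cell receptor subunit gene Cd3e reached at most 0.29 CPM, the B cell receptor subunit gene Cd79a at most 0.06 CPM and the sensory neuropeptide gene Calca at most 2.56 CPM in the 9 paw libraries. Skeletal muscle RNA varied widely between biopsies of each group. Acta1, the actin gene of skeletal muscle, was at 8054, 5617 and 2471 CPM on day 1, at 3925, 778 and 1537 CPM on day 6 and at 31.1, 4199 and 3977 CPM in the IgG controls, so IgG library 1 stood apart.

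On day 6, genes of monocytes, macrophages and other phagocytes, of MHC class II antigen presentation and of mitosis were higher than on day 1. A few genes known as NF-κB targets or active in vessels and matrix were lower. Of 15287 genes tested with edgeR's quasi-likelihood test, 157 (1.03%) passed a Benjamini-Hochberg adjusted p of 0.05. Of these, 145 (0.949%) were higher and 12 (0.0785%) lower on day 6, with a smallest adjusted p of 0.0202. Genes are said to rise, fall or pass by this test unless another tool is named. At an unadjusted p under 0.05 by edgeR there were 2137 of the 15287 genes, 1310 higher and 827 lower. DESeq2 called 567 genes higher and 168 lower, and limma voom 541 and 164. Counts per list by those tools, or at an unadjusted p, therefore stand against larger totals. The 145 genes that rose had a median log2 fold change of 1.34 with a range of 0.46 to 2.91; 106 rose at least 2-fold and 13 at least 4-fold. The 12 genes that fell had a median of -0.81 with a range of -2.80 to -0.42, and 4 fell at least 2-fold, while the median over all genes was -0.01. In all 157 genes the 3 libraries of one day lay beyond the 3 of the other, as did 12.7% of all genes tested with day 6 above and 9.57% with day 6 below.

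The number of calls rested on few libraries. By the same edgeR test, leaving out library 1 or 3 of day 1 gave 0 calls, with 1294 and 2282 genes at an unadjusted p under 0.05. Leaving out library 1 or 2 of day 6 also gave 0 calls, with 1962 and 1181 such genes, and over these 4 fits the smallest adjusted p lay between 0.0829 and 0.125. The count was 42 if library 2 of day 1 was dropped, 141 if library 3 of day 6 was, and 314, 69 and 149 if IgG library 1, 2 or 3 was. All 157 genes had the same sign in each of these fits. Their days did not overlap, so leaving out a library could hardly reverse a sign. When a muscle score per library (the mean centred log2 CPM of 23 muscle genes) was added as a covariate, all 157 were among the 384 genes past the threshold. IgG library 1 had a score of -5.71 and the other paw libraries -1.10 to 1.85, so this fit rests mainly on that library. It says little about muscle differences between the days. Nlrc4 and Bcl6b lay just inside the threshold, both with an edgeR adjusted p of 0.0495, and H2-DMa just outside it, at 0.0512.

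**Figure D1:**
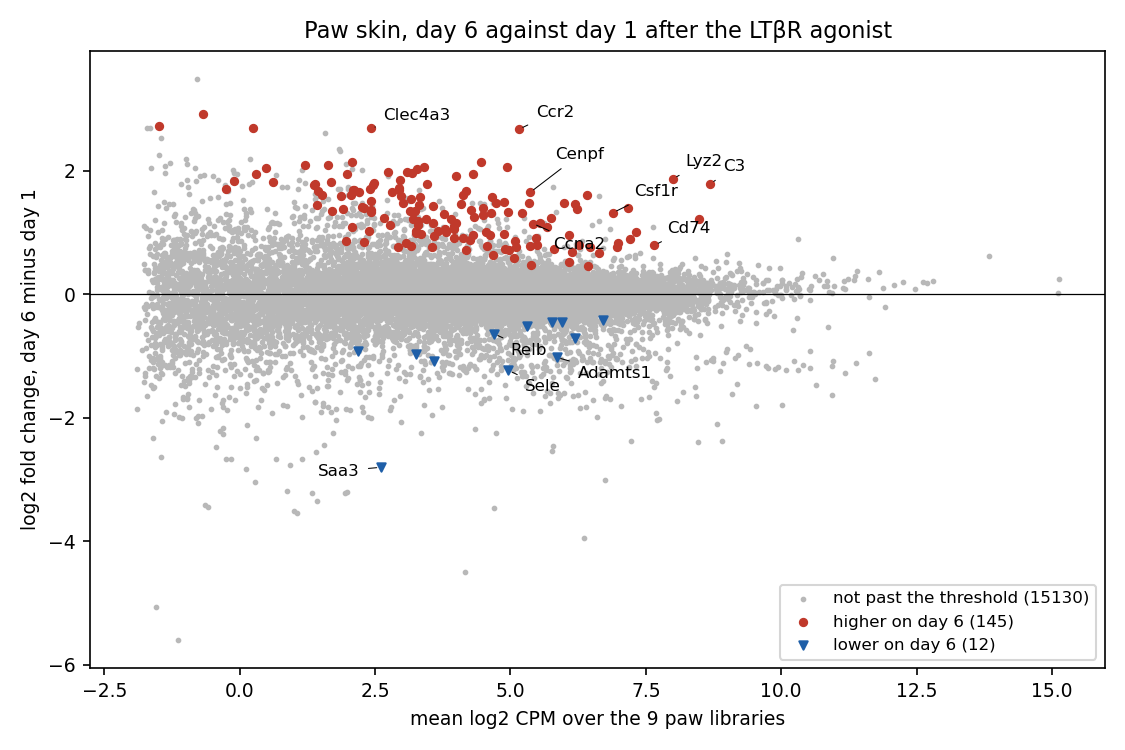
Change between days for the 15287 genes tested in paw skin: the horizontal axis is the mean log2 CPM over the 9 paw libraries and the vertical axis the log2 fold change, day 6 minus day 1. Grey dots are genes that did not pass the threshold, red dots the 145 that rose and blue triangles the 12 that fell; red dots reach 2.91 and most lie above 1, while Saa3 lies lowest of the blue at -2.80.

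Genes of receptors that bring monocytes into tissue and keep macrophages alive rose. Ccr2, the chemokine receptor with which classical monocytes leave the bone marrow and enter inflamed tissue, was at 12.4, 16.2 and 8.95 CPM on day 1 and at 96.6, 80.5 and 62.7 CPM on day 6. The groups lay far apart, and the day-1 libraries lay within the range of the IgG controls, at 17.8, 16.4 and 8.84 CPM. The rise was 6.39-fold (log2 fold change 2.68 ± 0.32, SE, n = 3 per group, edgeR adjusted p = 0.0202). Csf1r, the receptor for the macrophage growth factors CSF1 and IL-34, was at 79.9, 90.5 and 67.7 CPM on day 1 and at 226, 209 and 161 CPM on day 6. All 3 day-6 libraries stood above the other 6, whose IgG members were at 68.3, 85.2 and 81.8 CPM, and the rise was 2.50-fold (log2 fold change 1.32 ± 0.16, edgeR adjusted p = 0.0202). Cx3cr1, the fractalkine receptor of patrolling monocytes and resident macrophages, had a log2 change of 1.70 ± 0.37 and did not pass (edgeR adjusted p = 0.0757).

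Of 22 markers of macrophages and monocytes tested, 9 rose and none fell, 21 had positive values, and their median log2 fold change was 1.54 against -0.01 over all genes; DESeq2 and limma voom each called 14 of the 22 as higher. Emr1, which encodes the macrophage surface protein F4/80, was at 10.0, 13.3 and 7.08 CPM on day 1 and at 44.8, 43.3 and 29.1 CPM on day 6, a 3.85-fold rise. Lyz2, the lysozyme gene of myeloid cells, was at 142, 172 and 94.8 CPM on day 1 and at 591, 563 and 346 CPM on day 6, a 3.66-fold rise. In both genes the day-6 libraries stood clear of the rest, and day-6 library 3 was the lowest of its group. Mpeg1, a pore-forming protein of phagocytes, Cd33, a sialic acid-binding receptor of myeloid cells, and Itgam, the integrin αM chain (CD11b), rose with log2 fold changes of 2.06 ± 0.27, 2.07 ± 0.25 and 1.48 ± 0.25 (edgeR adjusted p = 0.0224, 0.0202 and 0.0389). Ms4a6c was at 2.03 ± 0.28 (edgeR adjusted p = 0.0246); it has near relatives, such as Ms4a6b at 1.99 ± 0.35 (edgeR adjusted p = 0.0440), among which short reads may be split uncertainly, and the same holds for Lyz2. Ly6c2, a surface marker of inflammatory monocytes, was the exception at -1.07 ± 0.75, with 0.536 to 4.09 CPM on day 1 and 0.311 to 1.62 CPM on day 6.

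These are bulk biopsies, so more cells of a type and more RNA per cell cannot be told apart. Day-6 library 3 was the lowest of day 6 in 112 of the 145 genes that rose, against 35.8% of all genes tested. The mean centred log2 CPM of the macrophage list was 1.10, 1.23 and 0.38 in the day-6 libraries and -0.29, -0.19 and -0.87 in the day-1 libraries. The muscle scores of the same libraries, computed likewise, were 1.04, -1.10 and -0.03 on day 6 and 1.85, 1.48 and 0.31 on day 1. The part of muscle content in these results was not tested beyond the covariate fit, which rests mainly on IgG library 1.

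**Figure D2:**
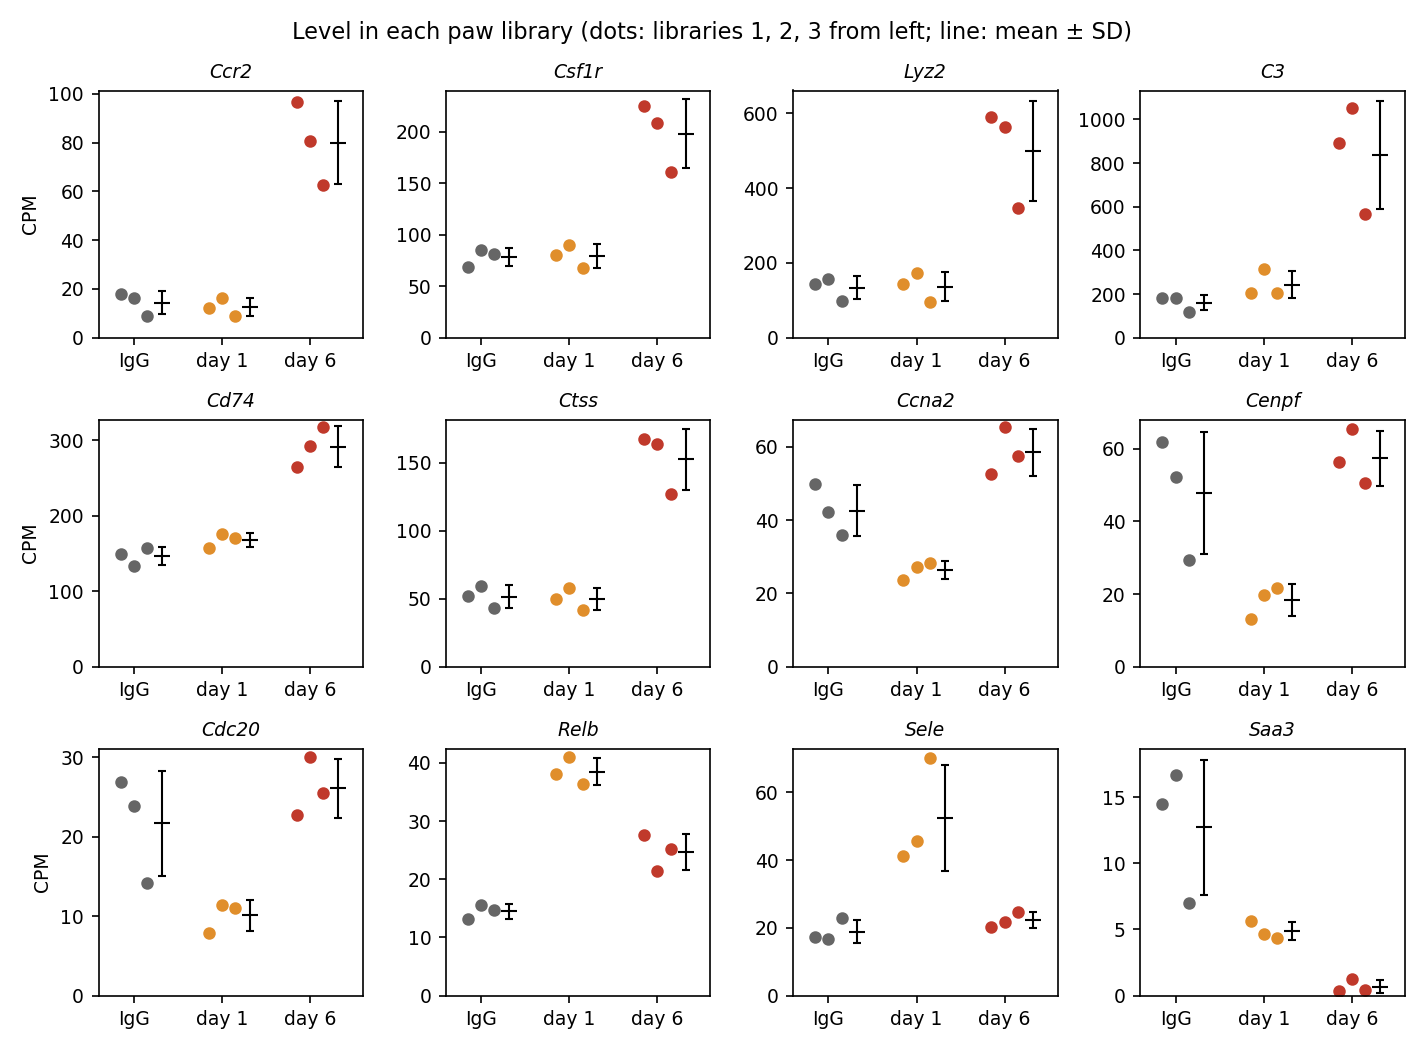
CPM of 12 genes in each paw library, with the 3 IgG, 3 day-1 and 3 day-6 libraries as dots in the order 1, 2, 3 from left and the mean ± SD beside them. Ccr2, Csf1r, Lyz2, C3, Cd74 and Ctss stand higher in all day-6 libraries than elsewhere, Ccna2, Cenpf and Cdc20 are lowest on day 1, Relb and Sele are highest on day 1, and Saa3 is lowest on day 6.

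Some genes of surface receptors that switch phagocytes on or off, and of the proteins they act through, rose. Of 13 genes for IgG receptors and their activating adaptors and kinases, 3 rose, 10 did not pass and all 13 had positive values, with a median log2 fold change of 1.25. Fcgr3, the low-affinity activating IgG receptor, was at 16.2, 16.3 and 11.8 CPM on day 1 and at 50.0, 44.5 and 38.0 CPM on day 6, with no overlap and a 2.99-fold rise (edgeR adjusted p = 0.0202). Tyrobp, the ITAM adaptor DAP12, rose 2.79-fold and Btk, a kinase of B cells and myeloid cells, 2.61-fold (edgeR adjusted p = 0.0202 and 0.0360). Of 16 inhibitory and paired receptors, 5 rose and none fell, with a median of 1.22. Clec4a3, a C-type lectin of the inhibitory DCIR family whose near-identical relatives make its reads uncertain, had the third largest rise of the 145 genes, after the provisional gene model Gm5431 and the lectin gene Clec2i. Those 2 genes rested on few reads, with 5, 7 and 2 reads of Gm5431 and 3, 3 and 2 of Clec2i on day 1 against 55, 59 and 19 and 23, 27 and 17 on day 6. Clec4a3 was at 1.60, 2.35 and 1.34 CPM on day 1 and at 12.5, 13.6 and 8.20 CPM on day 6, a 6.46-fold rise (log2 fold change 2.69 ± 0.28, edgeR adjusted p = 0.0202). Cd200r1, the receptor for the restraining signal CD200, rose 3.06-fold, Sirpa, the receptor for CD47, 1.69-fold, and Ptpn6, the phosphatase SHP-1 through which such receptors act, 1.56-fold (edgeR adjusted p = 0.0459, 0.0495 and 0.0433).

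Signalling, cytoskeletal and adhesion genes of blood-derived cells gave the largest number of calls after mitosis. Of 25 signalling and cytoskeletal genes, 10 rose, none fell and all 25 had positive values, with a median log2 fold change of 1.13. Ptprc, the pan-leukocyte phosphatase CD45, was at 14.4, 17.5 and 11.8 CPM on day 1 and at 43.1, 43.4 and 29.0 CPM on day 6. The days did not overlap, and the rise was 2.64-fold (edgeR adjusted p = 0.0249). Cd37, a tetraspanin, and Myo1f, a myosin of myeloid cells, rose 3.50-fold and 3.92-fold, both with an edgeR adjusted p of 0.0202, and Sfpi1, which encodes the myeloid transcription factor PU.1, rose 2.02-fold (edgeR adjusted p = 0.0294). Of 12 genes on a list of integrins and selectin ligands, 3 rose: Selplg, Itgam and Cd48, which is neither an integrin nor a selectin ligand. Selplg, the selectin ligand PSGL-1, was at 9.07, 10.7 and 8.53 CPM on day 1 and 24.8, 24.4 and 20.2 CPM on day 6.

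Genes of some Toll-like receptors and their partners rose. Of 19 Toll-like receptors and partners, 5 rose and none fell, with a median log2 fold change of 1.14. The 5 were Tlr7, Tlr8 and Tlr9, which sense nucleic acids in endosomes, Unc93b1, the chaperone that carries them there, and Ly86, the partner MD-1 of the receptor RP105. Tlr3, which also senses nucleic acids in endosomes, was at -0.04 ± 0.15 on the log2 scale and did not pass (edgeR adjusted p = 0.926, named after its values were seen). Tlr7 was at 4.02, 4.46 and 3.56 CPM on day 1 and at 18.2, 14.2 and 11.3 CPM on day 6, a 3.63-fold rise. Unc93b1 was at 22.02, 31.4 and 20.04 CPM on day 1 and at 72.2, 60.3 and 49.8 CPM on day 6, a 2.48-fold rise. Both genes were higher in every day-6 library than in any day-1 or IgG library (edgeR adjusted p = 0.0202 and 0.0271).

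Effector genes of phagocytes rose as well. All 6 genes of the phagocyte NADPH oxidase, which makes superoxide against microbes, had positive values with a median log2 fold change of 1.24, and 2 rose. Cybb, its catalytic gp91phox subunit, was at 10.6, 14.9 and 6.04 CPM on day 1 and at 59.3, 45.5 and 34.9 CPM on day 6, a 4.43-fold rise, and its cytosolic subunit gene Ncf1 rose 2.76-fold (edgeR adjusted p = 0.0415 and 0.0290). Of 17 complement genes 5 rose, with a list median of 0.60. C3, the central component, was at 206, 315 and 206 CPM on day 1 and at 892, 1053 and 569 CPM on day 6. The days did not overlap, all 3 day-1 libraries also lay above the IgG range of 120 to 181 CPM, and the rise was 3.46-fold (log2 fold change 1.79 ± 0.28, edgeR adjusted p = 0.0298). C1qa, C1qb and C1qc, the chains of C1q that tissue macrophages make, rose 2.78-, 2.76- and 2.61-fold, and Cfp, properdin of the alternative pathway, rose 2.44-fold (edgeR adjusted p = 0.0246, 0.0334, 0.0334 and 0.0233).

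Of 26 lysosomal genes 5 rose and none fell, and the list median was 0.41 on the log2 scale. Ctss, the cathepsin that trims the invariant chain in antigen-presenting cells, was at 49.8, 58.0 and 41.8 CPM on day 1 and at 168, 164 and 127 CPM on day 6, with IgG controls at 52.0, 59.7 and 42.9 CPM. The day-1 and IgG libraries overlapped and the day-6 libraries stood about 3.06-fold above day 1 (log2 fold change 1.61 ± 0.17, edgeR adjusted p = 0.0202). The others were Ctsc, which activates granule proteases, Grn, the progranulin gene, Man2b1, a lysosomal mannosidase, and Gpnmb, a glycoprotein of phagocytes, with log2 fold changes of 0.96, 1.01, 0.68 and 1.16.

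Genes of MHC class II presentation rose, and no class I gene passed. Of 9 genes of MHC class II presentation tested, 5 rose and none fell, with a median log2 fold change of 0.83. H2-Aa, a class II α chain, was at 95.0, 103 and 109 CPM on day 1 and at 159, 178 and 209 CPM on day 6. Cd74, the invariant chain, was at 157, 176 and 171 CPM on day 1 and 265, 292 and 318 CPM on day 6. In both genes day-6 library 3 was the highest of its group, as in only 9 of the 145 genes that rose. H2-Aa rose 1.78-fold and Cd74 1.74-fold, H2-Eb1 and H2-Ab1, which encode β chains, rose 1.73- and 1.60-fold, and H2-DMb1, part of the peptide editor H2-DM, rose 1.99-fold (edgeR adjusted p = 0.0233, 0.0202, 0.0202, 0.0271 and 0.0202). None of 16 genes of MHC class I presentation and the immunoproteasome passed by edgeR, DESeq2 or limma voom, with 2 at an unadjusted p under 0.05, and the median was 0.12. B2m, the class I light chain, was at 189, 225 and 177 CPM on day 1 and at 265, 254 and 231 CPM on day 6 (log2 fold change 0.34 ± 0.11, edgeR adjusted p = 0.221). Classical class I and class II genes have similar copies, so their reads are uncertain; the difference between the lists was not tested.

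Among dendritic and Langerhans cell markers 1 of 17 rose, the costimulatory gene Cd86 at 2.36-fold (edgeR adjusted p = 0.0334), and the list median was 0.78. DESeq2 called 5 and voom 6 of the 17 as higher, and 9 had an unadjusted p under 0.05 by edgeR. Flt3, the growth factor receptor of dendritic cells, was at 1.15 ± 0.23 on the log2 scale and did not pass (edgeR adjusted p = 0.0594). Of 18 genes of alternatively activated and resident macrophages 4 rose: the lectin genes Clec10a and Mgl2, Folr2, a folate receptor of resident macrophages, and Gpnmb. Folr2 was at 8.96, 14.2 and 8.15 CPM on day 1 and at 40.8, 37.4 and 21.2 CPM on day 6, a 3.17-fold rise (edgeR adjusted p = 0.0376). The day-6 libraries 1 and 2 were alike, and library 3 was lower but above every other paw library. Arg1 and Retnla, often used as marks of alternative activation, had log2 fold changes of 0.35 and -0.40 and did not pass; these 2 genes were named after their values were seen.

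Genes of other blood-derived cells gave few calls. Of 12 T cell markers tested, Cd4 rose, at 0.534, 0.570 and 0.536 CPM on day 1 and 2.00, 2.82 and 1.55 CPM on day 6 (3.88-fold, edgeR adjusted p = 0.0334). CD4 is carried by T helper cells and also by some mononuclear phagocytes, and the T cell genes Cd3d, Cd3e, Cd6, Cd8a, Cd8b1 and Foxp3 were too low to be tested. Of 4 B cell markers tested none rose by edgeR and 1 by DESeq2 and by voom, with 2 at an unadjusted p under 0.05, and 7 others, among them Cd79a and Ms4a1, were too low. Of 9 neutrophil markers none passed by any of the 3 tools and none had an unadjusted p under 0.05 by edgeR. S100a8, a calprotectin subunit also made by stressed keratinocytes, was at 27.1, 7.28 and 11.5 CPM on day 1 and 6.98, 56.1 and 1.43 CPM on day 6, with overlapping days. Of 13 mast cell markers none passed by edgeR and 1 fell by DESeq2 and by voom, with 1 at an unadjusted p under 0.05, the tryptase gene Tpsab1 at -1.23 ± 0.27 (edgeR adjusted p = 0.0825).

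**Figure D3:**
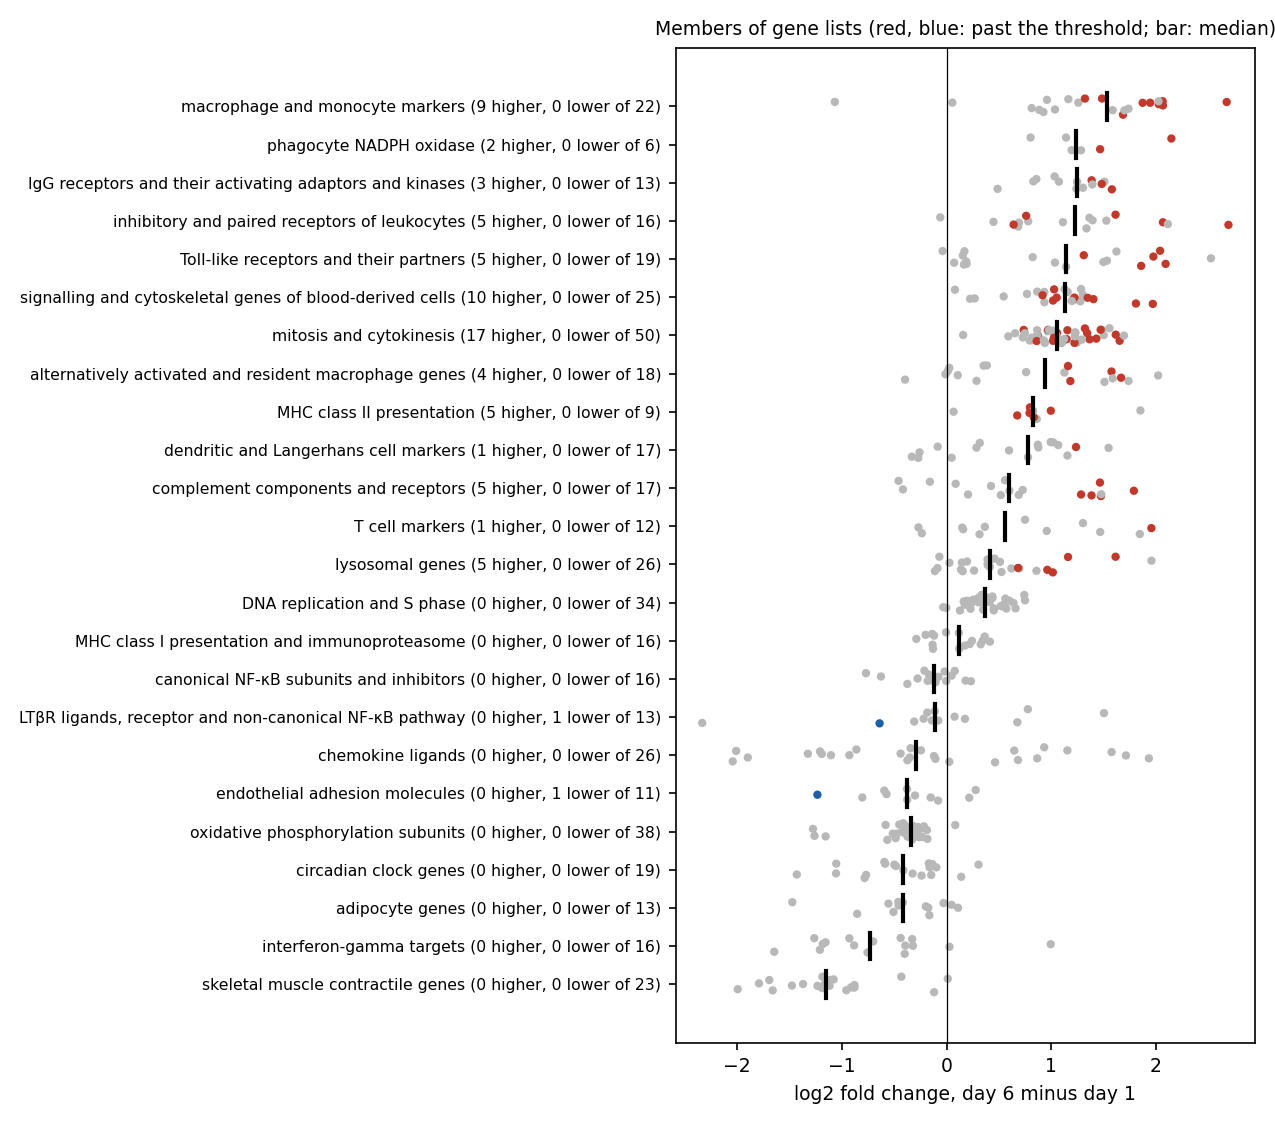
Log2 fold change, day 6 minus day 1, of every tested member of 24 gene lists, 1 dot per gene; red and blue dots passed the threshold as higher or lower, and black bars are list medians. Medians run from 1.54 for macrophage and monocyte markers to -1.15 for skeletal muscle genes, and only 2 of the lists shown hold a gene that fell.

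In the pathway that the injected antibody acts on, the gene of the effector subunit RelB fell and no other gene passed by edgeR. Relb was at 38.1, 41.1 and 36.3 CPM on day 1 and at 27.5, 21.4 and 25.2 CPM on day 6, against 13.2, 15.67 and 14.7 CPM in IgG controls. The 3 groups did not overlap, with day 6 between the others, and Relb fell by 0.64 ± 0.12 on the log2 scale between days (edgeR adjusted p = 0.0459). Nfkb2 was at 67.3, 66.8 and 54.6 CPM on day 1 and at 70.9, 51.6 and 51.9 CPM on day 6. Its days overlapped, both lay above the IgG libraries at 27.2, 29.5 and 24.1 CPM, and the log2 fold change was -0.11 ± 0.15 (edgeR adjusted p = 0.745). Map3k14 was at -0.14 ± 0.17 and Ltbr itself at -0.22 ± 0.14, with Ltbr at 54.1, 56.1 and 46.6 CPM on day 1 and 49.9, 45.4 and 39.3 CPM on day 6 (edgeR adjusted p = 0.727 and 0.508). Of the ligand genes, Lta was at 0.505, 0.470 and 0.459 CPM on day 1 and at 0.114, 0.0455 and 0.124 CPM on day 6, and did not pass (log2 fold change -2.34 ± 0.46, edgeR adjusted p = 0.0594). Lta rested on 18, 14 and 12 reads on day 1 and 4, 2 and 4 on day 6. Of the 13 genes of this list 1 fell by edgeR and 2 by DESeq2 and by voom, and the median was -0.11. Of 16 canonical NF-κB subunits and inhibitors none passed by edgeR and 1 fell by DESeq2 and by voom, with a median of -0.12 and 2 at an unadjusted p under 0.05 by edgeR. Among these was the inhibitor Tnfaip3 at -0.63 ± 0.17 (edgeR adjusted p = 0.148).

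Of the other genes that fell, 2 are known from endothelium. Sele, E-selectin, on which rolling leukocytes catch, was at 41.1, 45.7 and 70.2 CPM on day 1, at 20.2, 21.7 and 24.8 CPM on day 6 and at 17.3, 16.6 and 22.8 CPM in IgG controls. Day 6 overlapped the controls, and the fall was 2.35-fold (log2 fold change -1.23 ± 0.21, edgeR adjusted p = 0.0389). Bcl6b, an endothelial transcriptional repressor, was at 15.5, 15.4 and 14.5 CPM on day 1, at 8.98, 6.65 and 7.49 CPM on day 6 and at 4.15, 5.88 and 6.48 CPM in IgG controls, with day 6 just above the controls. Vcam1, whose product binds the integrin of monocytes and lymphocytes, was at 19.0, 42.3 and 24.9 CPM on day 1 and 21.4, 19.5 and 17.1 CPM on day 6, with overlapping days (log2 fold change -0.57 ± 0.38, edgeR adjusted p = 0.526). Icam1 was at -0.81 ± 0.29 (edgeR adjusted p = 0.268). Of 11 endothelial adhesion genes 1 fell, with a median of -0.38, and of 28 blood endothelial identity genes 1 fell, with a median of -0.04.

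Saa3, an acute-phase serum amyloid made in inflamed tissue by epithelial cells and macrophages, had the largest fall. It was at 5.62, 4.63 and 4.36 CPM on day 1 and at 0.372, 1.23 and 0.435 CPM on day 6. IgG controls were higher than both, at 14.5, 16.7 and 6.99 CPM, and the fall between days was 6.98-fold (log2 fold change -2.80 ± 0.48, edgeR adjusted p = 0.0403). Adamts1 and Adamts9, proteases that cut the proteoglycan versican in the matrix, fell by 1.02 ± 0.17 and 1.08 ± 0.19 on the log2 scale (edgeR adjusted p = 0.0334 and 0.0444), Adamts1 from 74.1, 69.2 and 59.6 CPM to 28.1, 35.2 and 36.4 CPM. For these 2 genes the day-1 libraries overlapped the IgG controls and all day-6 libraries lay below them. The mitochondrial superoxide dismutase gene Sod2, an NF-κB target, was at 118, 115 and 110 CPM on day 1 and 84.6, 84.6 and 88.0 CPM on day 6, a small fall of 0.42 ± 0.07 on the log2 scale (edgeR adjusted p = 0.0333). Its IgG controls were at 112, 114 and 110 CPM, so day 1 overlapped them and all day-6 libraries lay below them. The other 5 genes that fell were Asap2, Dcun1d5, Akap2, Gnal and 2210403K04Rik, with log2 fold changes of -0.91 to -0.45.

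Chemokine ligand genes had values in both directions. Of 26 tested, none passed by edgeR, DESeq2 called 2 higher and 5 lower, voom 1 and 2, 12 had an unadjusted p under 0.05 by edgeR, 16 had negative values and the median was -0.29. Pf4, a chemokine of platelets and macrophages, was at 1.15 ± 0.22 and Cxcl14, a chemokine of skin epithelium, at -1.10 ± 0.27 (edgeR adjusted p = 0.0560 and 0.118). Ccl2, the ligand of CCR2, was at 114, 79.0 and 38.8 CPM on day 1, at 28.3, 15.6 and 18.3 CPM on day 6 and at 11.8, 21.1 and 8.88 CPM in IgG controls. The days did not overlap, but it did not pass (log2 fold change -1.90 ± 0.47, edgeR adjusted p = 0.129, named after its values were seen). Of 15 chemokine receptors Ccr2 alone passed by edgeR, while DESeq2 called 4 and voom 2 as higher. Of 21 cytokine receptors of blood-derived cells Csf1r and Il10ra, the receptor for IL-10, rose. Interferon-gamma targets had a median of -0.73 with 14 of 16 negative, none past the threshold and 5 at an unadjusted p under 0.05 by edgeR. DESeq2 called 1 of them higher, and voom 1 higher and 1 lower. Irf1, a transcription factor of this response, was at 27.9, 39.5 and 20.1 CPM on day 1 and 21.5, 17.7 and 14.5 CPM on day 6 (log2 fold change -0.70 ± 0.24, edgeR adjusted p = 0.237).

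The second group that rose was mitosis. The cell division machinery is transcribed late in the cell cycle, and many of its genes carry 2 short promoter elements: the cell cycle homology region, with the letters TTTGAA, bound by the MuvB core with B-Myb and FOXM1 or the DREAM repressor, and CCAAT boxes, bound by NF-Y. Of 50 genes of mitosis and cytokinesis, 17 rose and none fell, and all 50 had positive values. In 49 of them every day-6 library lay above every day-1 library, and the list median was 1.05 on the log2 scale. Among the 15287 genes tested, 0.949% rose and 12.7% had day 6 above day 1 without overlap. DESeq2 called 48 and limma voom 49 of the 50 as higher, against the 17 of edgeR. Over all genes they called 567 and 541 as higher, against 145 by edgeR. Ccna2, cyclin A2, was at 23.8, 27.3 and 28.2 CPM on day 1 and at 52.5, 65.4 and 57.6 CPM on day 6, with IgG controls at 49.8, 42.1 and 35.8 CPM. Kif20a, a kinesin of the cleavage furrow, was at 12.2, 15.03 and 14.8 CPM on day 1, at 32.3, 40.2 and 32.5 CPM on day 6 and at 31.4, 26.5 and 18.8 CPM in IgG controls. In both genes all day-1 libraries lay below the controls and all day-6 libraries above them.

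Cenpf, a kinetochore protein of late G2 and mitosis, changed most among the mitosis genes that passed. It was at 13.3, 19.8 and 21.8 CPM on day 1, at 56.2, 65.4 and 50.5 CPM on day 6 and at 61.9, 52.3 and 29.3 CPM in IgG controls. It rose 3.14-fold between days (log2 fold change 1.65 ± 0.28, edgeR adjusted p = 0.0407). Day 6 overlapped the controls, and all 3 day-1 libraries lay below them. Cdc20, the activator of the anaphase-promoting complex, was at 7.86, 11.4 and 11.1 CPM on day 1 and 22.7, 30.01 and 25.5 CPM on day 6, a 2.58-fold rise (edgeR adjusted p = 0.0452). Kif23, a kinesin of the central spindle, rose 2.02-fold, Nusap1, a spindle protein, 1.96-fold, Foxm1, the transcription factor, 1.83-fold, and Ccnb2, cyclin B2, 2.23-fold (edgeR adjusted p = 0.0249, 0.0334, 0.0381 and 0.0202). Mki67, the proliferation marker Ki-67, was at 90.1, 134 and 142 CPM on day 1 and at 242, 309 and 232 CPM on day 6 and did not pass (log2 fold change 1.10 ± 0.25, edgeR adjusted p = 0.0830). Genes of DNA replication and S phase had smaller values, with none of 34 past the threshold by edgeR and 2 higher by DESeq2 and by voom, 12 at an unadjusted p under 0.05 by edgeR, 32 positive and a median of 0.36. The thymidine kinase gene Tk1 was at 0.66 ± 0.16 (edgeR adjusted p = 0.106). Of 20 G1 cyclins, kinases and inhibitors none passed by edgeR and 1 was higher by DESeq2 and by voom, with 3 at an unadjusted p under 0.05 by edgeR and a median of 0.14.

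The promoters of 4 mitosis genes that rose are shown because each holds both elements. They were chosen after their letters were seen and run from 250 bases before the start to 30 after it, 5′ to 3′ on the gene's strand, from RefSeq on GRCm38.p6. The counts were made on mm9, and no coordinates of that build are given. Capitals mark TTTGAA and CCAAT on either strand, so ATTGG is CCAAT read on the other strand, and no TTTGAA overlaps a CCAAT in the bases shown. The regions are chr9:70421525-70421804 (Ccnb2), chr4:118437314-118437593 (Cdc20), chr1:189688057-189688336 (Cenpf) and chr9:61946770-61947049 (Kif23), all on the minus strand.
Ccnb2: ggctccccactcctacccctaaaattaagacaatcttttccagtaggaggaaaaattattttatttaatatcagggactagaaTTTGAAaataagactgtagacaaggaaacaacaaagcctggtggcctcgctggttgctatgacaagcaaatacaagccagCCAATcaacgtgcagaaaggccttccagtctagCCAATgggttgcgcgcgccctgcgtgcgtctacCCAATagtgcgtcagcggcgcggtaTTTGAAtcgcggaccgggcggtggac
Cdc20: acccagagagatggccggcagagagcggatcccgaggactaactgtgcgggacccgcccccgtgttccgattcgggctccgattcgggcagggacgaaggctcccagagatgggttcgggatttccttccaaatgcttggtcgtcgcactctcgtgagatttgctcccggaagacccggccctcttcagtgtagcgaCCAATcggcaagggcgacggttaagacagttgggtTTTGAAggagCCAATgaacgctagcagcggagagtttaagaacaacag
Cenpf: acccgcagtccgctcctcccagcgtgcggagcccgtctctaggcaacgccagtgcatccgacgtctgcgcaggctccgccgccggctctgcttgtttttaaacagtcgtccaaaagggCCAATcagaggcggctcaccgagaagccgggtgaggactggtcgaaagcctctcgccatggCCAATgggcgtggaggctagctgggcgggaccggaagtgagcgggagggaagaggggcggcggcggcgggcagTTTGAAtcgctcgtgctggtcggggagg
Kif23: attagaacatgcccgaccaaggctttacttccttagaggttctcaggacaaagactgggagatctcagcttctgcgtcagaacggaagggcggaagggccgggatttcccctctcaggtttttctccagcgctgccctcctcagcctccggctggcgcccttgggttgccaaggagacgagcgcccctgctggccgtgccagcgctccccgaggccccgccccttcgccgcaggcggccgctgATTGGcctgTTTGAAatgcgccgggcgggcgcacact

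Of the 17 mitosis genes that rose, 13 had a promoter in the RefSeq table. TTTGAA stood in 11 of these 13 promoters (84.62%) and in 12.2% of the promoters of all genes tested, counted in 300 bases on either strand. All 11 held it within 50 bases of the start, where 3.06% of the promoters of genes tested held it. Over all mitosis genes tested, whether or not they passed, 30 of 42 promoters (71.43%) held it there, against 1 of 33 (3.03%) of the DNA replication genes and 6 of 97 (6.19%) of the other genes that rose. The other genes that rose are those outside the mitosis list, and these 6 promoters include those of the cell division genes Aspm and Spag5. CCAAT stood in 10 of 13 promoters (76.92%) of the mitosis genes that rose, 32.99% of the other genes that rose and 36.88% of genes tested. The general NF-κB consensus stood in 3 of 7 promoters (42.86%) of the genes that fell, from the 6 of 12 genes with an entry, and in 10.6% of the promoters of genes tested. The 3 were promoters of Adamts9, Sod2 and Dcun1d5. Those of Sele, Saa3 and Adamts1 and another entry of Dcun1d5 did not hold it, and Relb and Bcl6b had no entry. A match of letters is a description of the sequence and does not show a bound site, and the window of 50 bases was chosen after the positions were seen.

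About as many of the genes that rose belonged to no list (72) as to at least 1 (73). Fam64a, also called Pimreg, and Pif1, a DNA helicase, were at 0.927, 1.91 and 1.84 CPM and at 2.02, 2.31 and 2.79 CPM on day 1 and at 7.41, 7.33 and 5.75 CPM and at 8.18, 8.92 and 7.08 CPM on day 6. For both genes all day-1 libraries lay below the controls. P2ry12 and Gpr34, receptors for nucleotides and lysophospholipids that macrophages and microglia carry, rose 3.29- and 3.45-fold, and Pld4, an endosomal nuclease of myeloid cells, rose 3.80-fold (edgeR adjusted p = 0.0271, 0.0290 and 0.0246). Slamf7, a receptor of activated blood-derived cells, rose 3.41-fold, Aif1, the macrophage protein Iba1, 3.53-fold, and Mxd3, a partner of Max, 3.25-fold (edgeR adjusted p = 0.0202, 0.0248 and 0.0202). Outside the naming rule, and chosen after their values were seen, F13a1, the coagulation factor XIII A chain of resident macrophages, and Sepp1, selenoprotein P, rose 2.63- and 2.33-fold, and the transcription factor genes Maf and Snai2 rose 1.87- and 1.88-fold. Maf was at 90.2, 106 and 94.9 CPM on day 1 and 200, 166 and 177 CPM on day 6, with IgG controls at 197, 147 and 144 CPM that day 6 overlapped.

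Against the IgG controls, genes of blood-derived cells and of the cell cycle stood differently. The comparisons of each day with IgG share libraries with the comparison of days, so they are given as positions without a test. Of 52 genes that rose and belonged to lists of blood-derived cells, all 52 had every day-6 library above every IgG library, and 45 had day-1 libraries that overlapped IgG. Their median log2 fold changes against IgG were 0.01 on day 1 and 1.45 on day 6. Of 17 in cell cycle lists, 16 had every day-1 library below every IgG library and 11 had day-6 libraries that overlapped IgG, with medians of -0.69 on day 1 and 0.44 on day 6. Of the 76 genes that rose and were in neither, 36 had every day-1 library below every IgG library. These 36 include cell division genes that the lists did not hold, such as Aspm, Spag5, Ncaph and Tacc3. In 60 of the 76 every day-6 library was above every IgG library. Over all genes tested, day 6 lay above all IgG libraries in 8.22%. Day 1 lay below them in 8.60% and above them in 6.40%. Overlap of day 1 with IgG, as in 45 of the 52, was thus common to most genes tested. The genes that rose were chosen by their difference between days, which favours day 6 above IgG and day 1 below it. For the genes that fell the choice favours the reverse, so the shares over all genes are not a fair background for either set. Among the 50 mitosis genes tested 40 had day 1 below all IgG libraries, and among the 34 replication genes 20. The IgG libraries themselves spread, with mitosis scores of 0.52, 0.15 and -0.27 against -0.78, -0.58 and -0.44 on day 1 and 0.32, 0.70 and 0.40 on day 6. Scores of keratinocyte genes of injured epidermis were 1.63, 1.70 and -0.10 in IgG against 0.12, -0.76 and -0.25 on day 1 and -1.47, 0.53 and -1.41 on day 6. The part of that spread in the mitosis result was not tested. Among the 12 genes that fell, day 1 lay above all IgG libraries in 7, against 6.40% of genes tested, and day 6 below all of them in 7, against 5.87%.

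**Figure D4:**
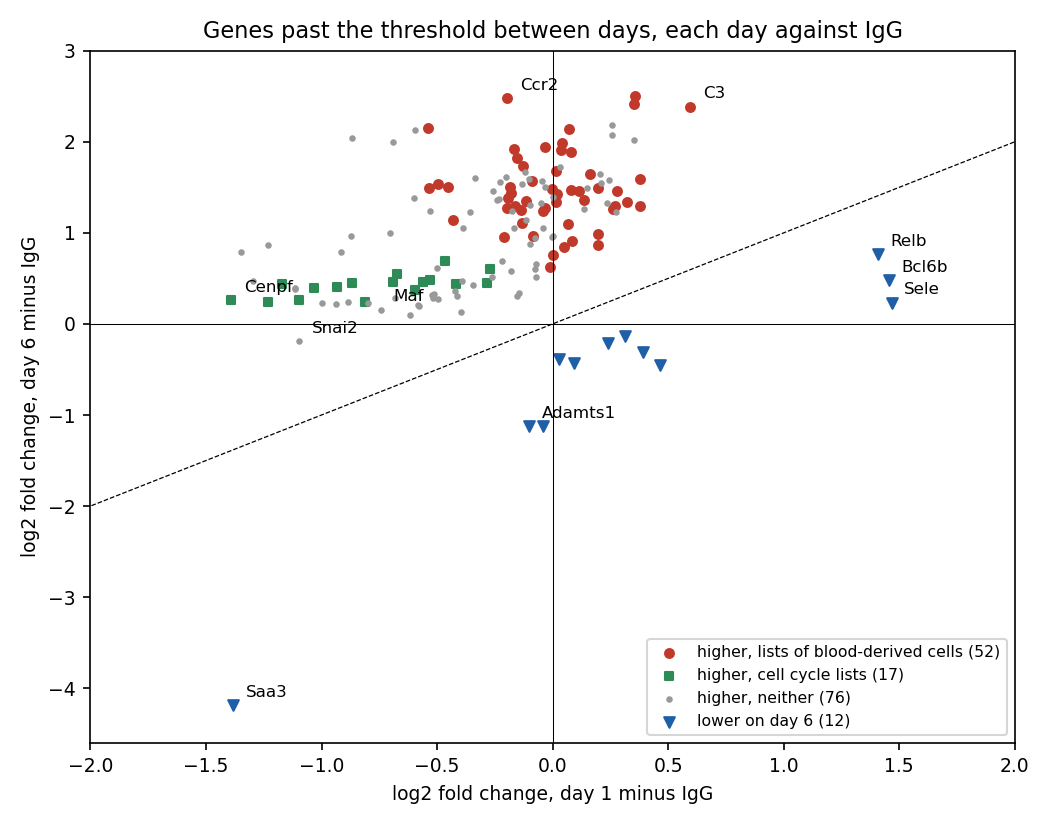
Log2 fold change against IgG on day 1 (horizontal) and day 6 (vertical) for the 157 genes past the threshold between days; the dashed line marks equal values. Genes of blood-derived cell lists (red) stack around 0 on the day-1 axis and above 0.6 on the day-6 axis, cell cycle genes (green) lie left of 0 and between 0 and 1 above it, and of the genes that fell (blue) Relb, Bcl6b and Sele lie far right and Saa3 at the bottom.

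In DRG, sampled at the same conditions, few genes passed between days. In a fit of 18 paw and DRG libraries, 3 of 16461 genes (0.0182%) passed between days in DRG, all 3 lower on day 6, with 503 at an unadjusted p under 0.05. The change between days differed between paw and DRG in 133 genes (0.808%), with 120 more positive in paw and 13 more negative. DRG IgG library 1 stood apart, since 31.5% of its uniquely placed reads fell in no gene, while the remaining DRG libraries had 13.1% to 13.8%. Without it 3 genes passed in DRG and 102 differed between tissues, 101 of them among the 133. Of the 145 genes that rose in paw, 78 showed such a difference, and in DRG 83 had positive values with a median log2 fold change of 0.06. The 145 were chosen by their change in the same paw libraries, and that choice favours a difference from DRG. C1qa was at 34.0, 48.5 and 33.1 CPM on day 1 and 126, 115 and 81.8 CPM on day 6 in paw, and at 38.7, 40.1 and 36.2 CPM and 26.9, 26.7 and 25.97 CPM in DRG, both on the scale of this fit. It was higher in every day-6 library in paw and lower in every day-6 library in DRG, and the log2 changes were 1.48 ± 0.17 and -0.53 ± 0.16, a difference of 2.02 ± 0.23 (edgeR adjusted p = 0.00257). Ccr2 was at 10.4, 9.60 and 6.93 CPM on day 1 and 12.7, 6.88 and 8.54 CPM on day 6 in DRG, with overlapping days, and its change differed from paw by 2.63 ± 0.40 (edgeR adjusted p = 0.00664).

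By gene group, of the 52 genes of blood-derived cell lists, 40 differed between tissues and 29 had negative values in DRG, with a median there of -0.04. The 52 were likewise chosen by their change in paw, so the count of 40 is not independent of that choice. Of the 17 cell cycle genes 1 differed between tissues, 16 had positive values in DRG and the median there was 0.55. Over all 50 mitosis genes 45 were positive in DRG, with a median of 0.43 against 0.005 over all genes. None of the 50 passed in DRG. Cenpf was at a log2 fold change of 2.02 ± 0.33 in DRG (edgeR adjusted p = 0.0707). Of the 12 genes that fell in paw 10 had negative values in DRG, among them Relb at -0.71 ± 0.13 (edgeR adjusted p = 0.104), and 2 differed between tissues.

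**Figure D5:**
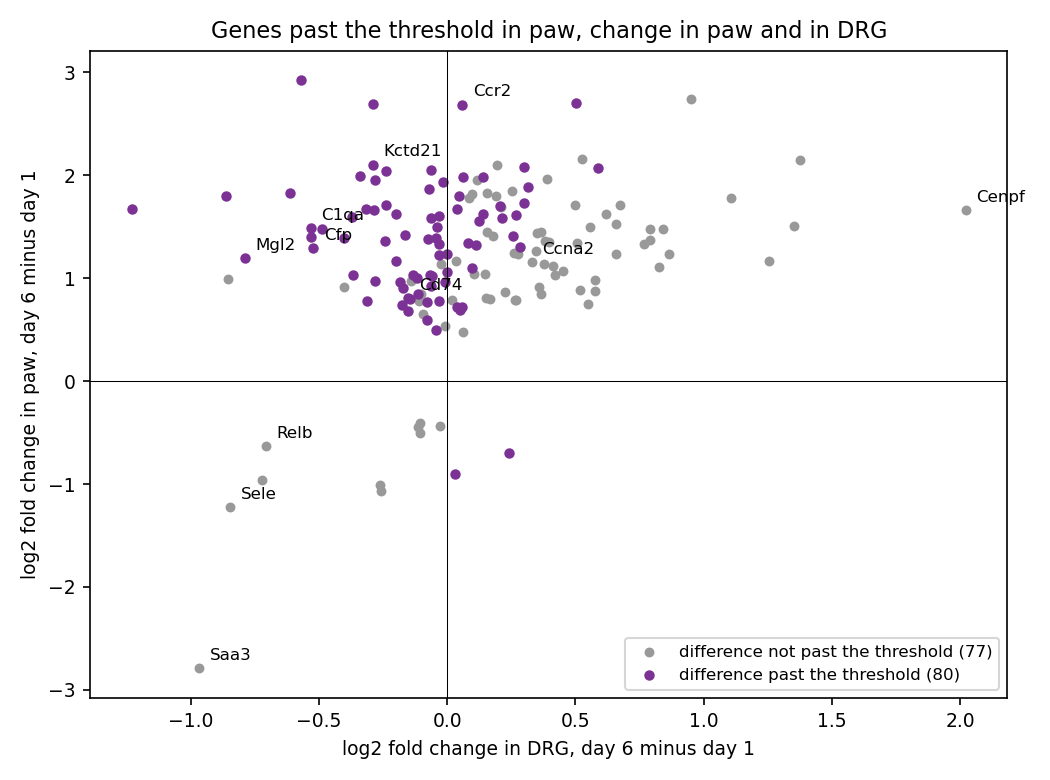
Log2 change from day 1 to day 6 in DRG (horizontal) and paw (vertical) for the 157 genes past the threshold in paw; purple marks the 80 genes whose change differed between the tissues and grey the other 77. Most purple genes rise in paw and lie near or left of 0 in DRG, while Cenpf lies far right, at 2.02.

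Structural genes of the biopsies gave few or no calls by any tool. Basal and differentiated keratinocyte genes had medians of 0.05 and 0.21, and keratinocyte genes of injured epidermis 0.02, with 0 of 11, 17 and 22 past the threshold by edgeR, DESeq2 or voom and 0, 0 and 4 at an unadjusted p under 0.05 by edgeR. Fibroblast genes had a median of 0.16 over 21 and collagen genes 0.06 over 20, with none past the threshold and 1 and 4 at an unadjusted p under 0.05 by edgeR, and with 1 fibroblast gene higher by DESeq2 and by voom. All but 1 of 23 skeletal muscle genes were negative, with a median of -1.15, none past the threshold by edgeR, DESeq2 or voom and none at an unadjusted p under 0.05 by edgeR. Oxidative phosphorylation genes, abundant in muscle, had a median of -0.34 with 37 of 38 negative, none past the threshold by edgeR or DESeq2, 1 lower by voom and 12 at an unadjusted p under 0.05 by edgeR. With the muscle score as a covariate the median was -0.06 for the muscle list and -0.23 for the oxidative phosphorylation list. The score is the mean of the muscle list itself, so a median near 0 for that list was fixed in advance.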

How the data were processed

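RNA-seq was deposited by the authors as 1 table of raw read counts per gene symbol and library, made with bcl2fastq, TopHat2 and HTSeq on mm9, per the submitters' processing notes; versions, annotation and strand setting are not given in the sources used here, so genes that overlap or lie antisense, and near-identical copies, are uncertain. The 5 summary lines of each file (reads without a feature were 15.1% to 19.0% of uniquely placed reads in the agonist paw libraries) were left out of totals and tests, leaving 22609 genes.

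Counts of the 9 paw libraries were fitted with edgeR 4.0.16 (R 4.3.3; TMM, filterByExpr, robust quasi-likelihood, two-sided) with 1 mean per group, without a block for sample number, and Benjamini-Hochberg adjusted over 15287 genes at 0.05. The IgG libraries entered to estimate the spread. Paw and DRG were compared by an interaction term over 18 libraries. CPM use TMM-scaled totals; ± is the SE, taken as the log2 fold change over the square root of F. Libraries came from a kit that marks strand, per the labels' protocols. Counting error was not separated from the spread between libraries and is large for genes of few reads. No pair of the 36 pairs of paw libraries held identical values. Code was tested on simulated data. Alternatives were RLE and upper-quartile scaling, other low-count filters, DESeq2 1.42.0, limma 3.58.1 voom, other sample sets, a replicate block, a muscle covariate and leaving out each library; for DRG, and for its difference from paw, leaving out IgG libraries was chosen after seeing the data, as was leaving out any library for the calls in DRG alone.

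The comparison and the 51 gene lists (907 symbols, 893 matched as written and 11 by an older symbol) were chosen with earlier results of these data known, so list counts are descriptions. Named genes are those that fell, up to 15; the 30 largest rises with mean log2 CPM of at least 0, without provisional models; up to 6 called members per list, or the 2 with the smallest p; and genes set for the pathway, sample makeup and the 10 smallest p for the difference from DRG. Named beyond that, with values known, were the genes at the edge of the threshold, Arg1, Ccl2, Cdc20, Cenpf, Clec2i, F13a1, Gm5431, Ly6c2, Maf, Mki67, Per1, Per2, Retnla, Sepp1, Sfpi1, Snai2, Tlr3 and the markers Calca, Cd79a and Col3a1. Some results are not reported here.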

Additional observations from a re-analysis of the deposited data

Results flagged for a closer look

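The change from day 1 to day 6 differed between paw and DRG in 133 genes by the interaction term of edgeR's quasi-likelihood test. The 10 genes with the smallest p were all more positive in paw, by log2 differences of 1.82 ± 0.21 for Cfp, 2.02 ± 0.23 for C1qa, 1.98 ± 0.26 for Mgl2, 2.39 ± 0.32 for Kctd21, 1.80 ± 0.24 for C1qc, 0.95 ± 0.13 for H2-Eb1, 1.25 ± 0.17 for Ctsc, 1.96 ± 0.27 for C1qb, 1.12 ± 0.16 for H2-DMb1 and 0.96 ± 0.13 for Cd74 (SE; edgeR adjusted p of 0.00257 to 0.00595). Cfp was at 15.5, 15.2 and 14.3 CPM on day 1 and 9.45, 10.9 and 11.04 CPM on day 6 in DRG, and at 15.3, 16.2 and 13.95 CPM and 40.1, 42.2 and 29.1 CPM in paw. Mgl2, a macrophage lectin, was at 15.4, 14.2 and 16.7 CPM on day 1 and 7.79, 10.8 and 8.21 CPM on day 6 in DRG, with all day-6 libraries lower. Cd74 overlapped between days in DRG, at 177, 201 and 196 CPM and 169, 161 and 186 CPM.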

How the results depend on the processing

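The 157 genes past the threshold between days kept their sign in each setting that tested them (155 of them with at least 1 CPM in 3 libraries), while their number moved. Their days did not overlap, so a kept sign was largely fixed in advance and adds little. DESeq2 called 735 genes (567 higher, 168 lower) and limma voom 705 (541 and 164) against 157 (145 and 12) by edgeR; with the muscle score as covariate 384 were called (321 and 63), and with only the 6 agonist libraries 223 (197 and 26), 136 of them among the 157. Leaving out 1 library gave 0 to 314 calls, 0 to 274 higher and 0 to 40 lower. For the difference from DRG (133 genes, 120 more positive and 13 more negative in paw), DESeq2 called 456 (331 and 125), RLE scaling gave 21 more negative, only the 12 agonist libraries gave 20, and leaving out 1 library gave 51 to 297 calls, 47 to 246 more positive and 4 to 55 more negative (51 to 87 calls without day-1 paw library 1, day-6 paw library 1 or 2 or any agonist DRG library, 297 and 270 without paw IgG library 1 and day-6 paw library 3). In DRG alone, leaving out 1 library gave 2 to 8 calls, with 8 without paw IgG library 1. Deviations of same-numbered day-1 and day-6 libraries correlated at 0.32, -0.24 and 0.26, and day-1 library 2 correlated best with day-6 library 1, at 0.38. These values do not settle whether the numbers pair the libraries. A replicate block called 139 genes (131 higher, 8 lower), of which 92 were among the 157. For the difference from DRG the block gave 141 calls, of which 99 were among the 133. Named genes that changed sign, none of them past the threshold, were S100a8 (-0.88 with the block; -1.86 to 1.22, lowest without day-6 library 2), Ckm (0.24 with the muscle covariate), Krt16 (-2.54 to 0.37, with 0.37, 0.23 and 0.20 without the first library of day 1 and libraries 1 and 3 of day 6) and Trem1 (-0.034 to 3.46, lowest without day-6 library 2). The cause of these moves was not tested. On the given strand only, TTTGAA stood in 61.54% of the promoters of mitosis genes that rose and 6.72% of those of genes tested. Of the genes that fell, Relb stayed past the threshold in 1 and Saa3 and Sele each in 2 of 9 fits without a library, with Relb at -0.73 to -0.54, and Ccr2 stayed in 5, at 2.49 to 2.91 and adjusted p up to 0.125 by edgeR.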

Other observations

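Several further groups of genes had no call by edgeR, some with negative medians and others with medians near the -0.01 of all genes. Of 19 circadian clock genes 17 were negative, with a median log2 fold change of -0.41, none past the threshold and 6 at an unadjusted p under 0.05 by edgeR, and 1 lower by DESeq2 and by voom. Bhlhe40, a repressor of the clock, was at 371, 352 and 311 CPM on day 1 and at 218, 219 and 293 CPM on day 6, against 257, 286 and 261 CPM in IgG controls. All 3 day-1 libraries were the highest of the 9, and the log2 fold change was -0.50 ± 0.13 (edgeR adjusted p = 0.146). Per2, a core clock gene, was at 76.9, 48.4 and 61.9 CPM on day 1, 16.5, 23.7 and 29.2 CPM on day 6 and 12.0, 24.0 and 70.5 CPM in IgG controls, with the IgG libraries spanning nearly the whole range (log2 fold change -1.43 ± 0.60, edgeR adjusted p = 0.351). The labels used here give no hour of biopsy.

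Of 16 glucocorticoid-responsive genes 13 were negative, with a median of -0.24, none past the threshold and 1 at an unadjusted p under 0.05 by edgeR, and 1 lower by DESeq2. The gene under 0.05 by edgeR was Zbtb16, a zinc finger transcription factor, at 77.0, 55.2 and 26.9 CPM on day 1 and 25.4, 18.8 and 18.3 CPM on day 6 (log2 fold change -1.35 ± 0.45, edgeR adjusted p = 0.242). Of 13 adipocyte genes 11 were negative, with a median of -0.42, none past the threshold by edgeR, DESeq2 or voom and 2 at an unadjusted p under 0.05 by edgeR. Of 22 type I interferon-stimulated genes none passed by edgeR and 1 was higher by DESeq2, with 1 at an unadjusted p under 0.05 by edgeR and a median of -0.03, and of 19 genes of prostaglandin synthesis and neurotrophic mediators none passed by edgeR, DESeq2 or voom, with 1 at an unadjusted p under 0.05 by edgeR and a median of -0.01.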
